A study of Homo sapiens with 8 samples.

Results

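The 10 genes described here encode part of the MHC class II antigen presentation machinery and the 4 proteins that switch its genes on. They were taken from a fixed list of 10 symbols and all had a probe set paired with exactly 1 symbol, out of 17958 genes with such a probe set. Where a gene had several probe sets, the one with the highest mean over the 8 arrays stood for it. The study profiled total RNA of 2 lymphoma lines, 1 sample per Affymetrix HuGene-1_1-st-v1 array. There were 3 arrays of KMH2 cells after 24 h of glucosamine, 2 arrays of Ramos cells and 3 arrays of KMH2 control cells. KMH2 is a Hodgkin lymphoma line of B-cell origin, and Ramos is a Burkitt lymphoma line. Each line descends from 1 tumour, so neither stands for its disease as a whole. KMH2 is known to carry a gene fusion that involves CIITA, and a probe set value does not tell fused from unfused transcripts. Both lines were grown in the same supplemented RPMI medium, and the glucosamine dose is not stated in the sources used here. Sample labels call both Ramos arrays control, whereas the series' design text has 1 Ramos sample treated with glucosamine, so Ramos was treated as a cell line only and neither array was given a treatment.

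MHC class II molecules display peptides from endocytosed proteins to CD4 T cells and are found on B cells, dendritic cells and macrophages. Their alpha and beta chains assemble with the invariant chain CD74, which fills the peptide groove until HLA-DM exchanges its remnant for a peptide, and HLA-DO restrains HLA-DM. Transcription of the whole set depends on CIITA, a coactivator that does not bind DNA itself. CIITA docks on the RFX complex (RFX5, RFXAP and RFXANK), which sits on the X box of class II promoters beside NF-Y on the Y box, and inherited loss of any of the 4 regulators causes a severe immunodeficiency without class II. Hodgkin tumour cells often reduce class II through lesions of CIITA.

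All values are log2 signals as deposited, so a difference of 1 is a doubling of signal. Differences are treated minus control within KMH2, or Ramos minus KMH2 control between lines, and a gene was called when its adjusted p from limma, taken over all 19181 probe sets with 1 symbol, was under 0.05. The B-cell and Hodgkin marker lists fitted the labelled lines. Of all probe sets 43.8% were called between the lines and 25.8% after glucosamine. B-cell genes were called higher in Ramos than in KMH2 control for 8 of 9 (MS4A1, the CD20 gene, by 7.24), with CD40 lower, and Hodgkin markers lower for 7 of 7. Mean B-cell marker signals per array were 6.12 to 6.38 in glucosamine, 9.97 to 9.98 in Ramos and 6.14 to 6.42 in KMH2 control. After glucosamine 5 of the 7 Hodgkin markers were called lower and 1 higher (CSF1R), with means per array of 8.63 to 8.66 against 8.92 to 8.97 in control. Markers of monocytes, macrophages and dendritic cells, which also carry class II, had mean signals of 4.83 to 4.86 per glucosamine array, 4.74 to 4.76 per Ramos array and 4.87 to 4.98 per KMH2 control array over 11 genes. After glucosamine, 1 of those 11 was called, CD14, which fell by 1.08. In Ramos 2 of the 11 were called higher than in KMH2 control and 3 lower. The list means hide brighter members, such as CD14 (7.37) and ITGAM (7.39) in KMH2 control, named after their values were seen. Of 9 T-cell and NK markers 0 were called after glucosamine by limma (1 higher and 2 lower at an unadjusted p under 0.05, and 1 with the replicate block). In Ramos 2 of the 9 were called higher than in KMH2 control (CD8A and NKG7) and 2 lower (CD3D and CD3G). KMH2 control had mean signals of 8.19 for CD3D and 7.92 for CD3G. The part of these marker shifts in the class II differences was not tested.

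After glucosamine all 4 regulators were lower in KMH2 cells, by nearly the same amount, while the class II chain gene HLA-DRA and the invariant chain gene CD74 differed by close to 0. Of the 10 genes, 5 were called lower (CIITA, RFX5, RFXAP, RFXANK and HLA-DOA), 0 higher by limma (0 also at an unadjusted p under 0.05), and 5 did not pass. Of all probe sets tested 25.8% were called, 13.9% lower and 11.9% higher. The median difference of the 10 genes was -0.31, against 0.01 over all probe sets. In 6 of the 10 genes the 3 glucosamine arrays lay below all 3 control arrays, and in 0 genes above them. Of all probe sets 40.9% had groups that did not overlap, 20.6% lower and 20.3% higher. In bulk RNA, fewer cells with a transcript and less of it per cell cannot be told apart.

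**Figure D1:**
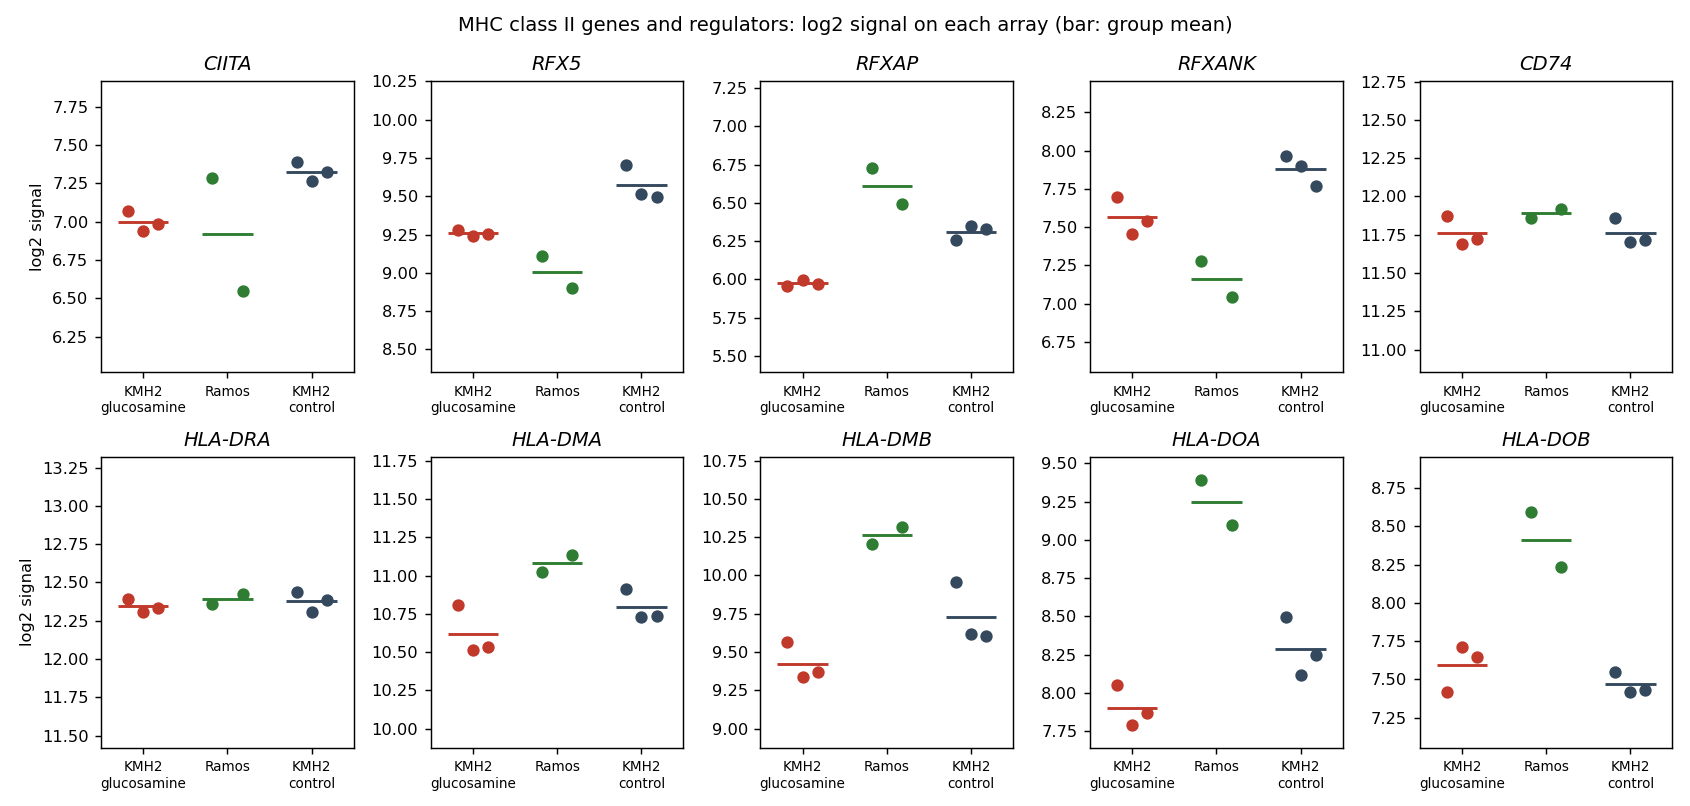
Log2 signal (vertical axis, each panel spanning the same number of units) of the 10 genes on each array, with points for arrays and a bar for the group mean. The KMH2 glucosamine arrays lie below the KMH2 control arrays for CIITA, RFX5, RFXAP, RFXANK, HLA-DMB and HLA-DOA, and HLA-DOA and HLA-DOB are highest in Ramos.

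CIITA (probe set 7993195, chromosome 16), the coactivator, had 7.07, 6.94 and 6.98 log2 units on the glucosamine arrays, against 7.39, 7.27 and 7.33 on the control arrays. The groups did not overlap. The difference was -0.33 ± 0.06 (SE, n = 3 per group), a 1.26-fold lower signal, with a 95% confidence interval from -0.46 to -0.19 and limma adjusted p = 0.00457. With 1 spread estimated from all 8 arrays, where the distance between the Ramos arrays counts as error, CIITA was no longer called (limma adjusted p = 0.250).

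RFX5 (probe set 7919971, chromosome 1) is the subunit of the RFX complex that carries its DNA-binding domain. It had 9.28, 9.24 and 9.25 in glucosamine, against 9.70, 9.52 and 9.50 in control, so every treated array was below every control array. The difference was -0.32 ± 0.07 (SE, limma adjusted p = 0.00934). RFXAP (probe set 7968653, chromosome 13), the associated protein of the complex, had 5.96, 6.00 and 5.97 in glucosamine, against 6.26, 6.35 and 6.33 in control. It gave the smallest p of the 10 genes, with a difference of -0.33 ± 0.05 (SE, limma adjusted p = 0.00208). Both RFX5 and RFXAP stayed called in all 16 alternative settings, with adjusted p up to 0.0440 for RFX5 and 0.0248 for RFXAP.

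RFXANK (probe set 8027139, chromosome 19), the ankyrin-repeat subunit that links the complex to CIITA, had 7.70, 7.46 and 7.54 in glucosamine, against 7.96, 7.90 and 7.77 in control. The groups did not overlap, although the highest treated array came within the spread of replicates of the lowest control array. The difference was -0.31 ± 0.08 (SE, limma adjusted p = 0.0212). The call was lost without control replicate 1 (limma adjusted p = 0.0714) or 2 (0.0753), without glucosamine replicate 2 (0.0682) or 3 (0.0716), and when all 8 arrays shared the spread (0.0734).

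Against this even fall of the regulators, the products at the centre of the pathway differed little. HLA-DRA (probe set 8178193, chromosome 6), the invariant alpha chain of HLA-DR, had 12.39, 12.31 and 12.34 in glucosamine, against 12.44, 12.31 and 12.39 in control. The groups overlapped, and the difference was -0.03 with a 95% confidence interval from -0.16 to 0.10 (limma adjusted p = 0.756). Its 3 probe sets gave differences from -0.03 to -0.01. CD74 (probe set 8115147, chromosome 5) had 11.87, 11.69 and 11.72 in glucosamine, against 11.86, 11.70 and 11.72 in control. Its groups overlapped as well, and the difference was 0.0039 with an interval from -0.16 to 0.17 (limma adjusted p = 0.978). Both intervals leave out a fall as large as the 0.33 of CIITA, but both genes lay near the upper end of the table, where the highest signal was 13.2, and whether signals this bright still follow the amount of RNA was not tested. No test compared the regulators with their targets.

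The 4 genes of HLA-DM and HLA-DO, which load and edit the peptide, had differences of both signs after glucosamine. They neighbour each other on chromosome 6. Their RefSeq promoter windows of GRCh38.p14 (250 bases before to 50 after a start) were searched for short patterns of letters. For each, 140 bases of that window are printed 5′ to 3′ on the gene's strand. Capitals mark CCAAT, the core of the Y box (ATTGG on the other strand), and an X-box-like pattern (CNAG, then any 3 bases, then CNGAT), which was written after these windows had been read. Finding that pattern in all 4 genes was therefore fixed in advance and does not show that their control regions are alike. The patterns do not overlap in these windows.
HLA-DMA (chr6:32953108-32953247, minus strand): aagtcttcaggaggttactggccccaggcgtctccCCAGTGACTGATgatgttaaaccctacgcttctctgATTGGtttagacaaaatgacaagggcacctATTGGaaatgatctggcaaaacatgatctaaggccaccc
HLA-DMB (chr6:32941039-32941178, minus strand): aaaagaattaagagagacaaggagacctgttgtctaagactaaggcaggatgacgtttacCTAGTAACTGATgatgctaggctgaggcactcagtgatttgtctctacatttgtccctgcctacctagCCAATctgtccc
HLA-DOA (chr6:33009602-33009741, minus strand): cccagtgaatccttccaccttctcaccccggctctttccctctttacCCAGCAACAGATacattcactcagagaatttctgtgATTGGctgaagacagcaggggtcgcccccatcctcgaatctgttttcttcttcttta
HLA-DOB (chr6:32817013-32817152, minus strand): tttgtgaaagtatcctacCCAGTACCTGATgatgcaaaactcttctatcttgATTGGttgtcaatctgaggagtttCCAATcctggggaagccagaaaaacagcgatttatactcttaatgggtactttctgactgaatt
The same stretch of CD74 holds CCAAT but not the X-like pattern. The pattern can miss an X box of other letters, so CD74 is not shown to lack one. Whether the pattern goes with the glucosamine differences was not tested.
CD74 (chr5:150412921-150413060, minus strand): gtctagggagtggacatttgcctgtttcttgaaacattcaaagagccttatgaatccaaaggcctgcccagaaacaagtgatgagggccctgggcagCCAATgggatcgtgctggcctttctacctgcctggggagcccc
In HLA-DMA and HLA-DOA 24 bases separate the X-like pattern from CCAAT, in HLA-DOB 22 and in HLA-DMB 56. Over all 35116 RefSeq windows, both strands searched, CCAAT was in 34.6% and the X-like pattern in 2.49%. Both, with CCAAT at most 40 bases downstream, were in 92 windows (0.262%). Among these were the windows of HLA-DRB1, HLA-DRB5, HLA-DQB1 and HLA-DQB2 besides HLA-DMA, HLA-DOA and HLA-DOB. The rest belong to genes outside class II, such as NPHP4, CCNB1 and EEF1G, so the 2 patterns together are not particular to class II. The window of HLA-DMB was not among the 92, so its CCAAT is marked for its letters only. Windows were matched for 8 of the 10 genes, all but CIITA and HLA-DRA. CCAAT was in 1 of 3 windows of RFX5 and in 0 windows of RFXAP and RFXANK. These matches describe letters and do not show that a site is bound.

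HLA-DOA (probe set 8125545), the alpha chain of HLA-DO, had 8.05, 7.79 and 7.87 in glucosamine, against 8.49, 8.12 and 8.25 in control. The groups did not overlap, and the difference, -0.38 ± 0.11 (SE, limma adjusted p = 0.0297), was 1.31-fold. Both of its probe sets were called, but their values were nearly the same on every array, so they are not separate evidence. The call was lost without control replicate 1 (limma adjusted p = 0.0723) or 3 (0.0738), without glucosamine replicate 2 (0.0946) or 3 (0.0922), with all probe sets of the table (0.0683) and when all 8 arrays shared the spread (0.0865).

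HLA-DOB (probe set 8178833), the partner chain of HLA-DO, did not follow it. It had 7.42, 7.71 and 7.65 in glucosamine, against 7.55, 7.42 and 7.43 in control. Of the treated arrays 2 lay above all control arrays and 1 just below the lowest of them (both 7.42 when rounded). The difference was 0.12, with a 95% confidence interval from -0.07 to 0.32 (limma adjusted p = 0.341). Without glucosamine replicate 1 it was 0.21 and was called (limma adjusted p = 0.0427), as it was without both replicate 1 arrays (0.25, adjusted p = 0.0158) and with array weights on all 6 arrays (0.19, adjusted p = 0.0417).

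HLA-DMB (probe set 8125530), the beta chain of HLA-DM, had 9.56, 9.34 and 9.37 in glucosamine, against 9.96, 9.62 and 9.60 in control. The groups did not overlap, but the control spread was wide and the difference of -0.30 ± 0.11 (SE) did not pass (limma adjusted p = 0.0733). HLA-DMA (probe set 8178884), the alpha chain, had 10.81, 10.51 and 10.53 in glucosamine, against 10.92, 10.73 and 10.73 in control. Here replicate 1 of the treated cells lay above 2 control arrays, and the difference of -0.18 ± 0.09 (SE) did not pass (limma adjusted p = 0.214). Without glucosamine replicate 1 both were called, HLA-DMB at -0.37 (limma adjusted p = 0.0355) and HLA-DMA at -0.27 (adjusted p = 0.0259). Both were also called with array weights (adjusted p = 0.0197 for HLA-DMB and 0.0341 for HLA-DMA) and without both replicate 1 arrays (0.0126 and 0.0292 in the same order), and HLA-DMB with only the brighter probe sets tested (0.0462).

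The replicate 1 arrays of both KMH2 groups were often the highest in these genes. Deviations of replicates 2 and 3 over all probe sets correlated similarly when crossed (0.25 and 0.18) and within number (0.23 and 0.23). The values thus do not show that replicates 2 and 3 pair by number. Control replicate 1 was the highest control array in 9 of the 10 genes (37.6% of all probe sets), and glucosamine replicate 1 the highest treated array in 8 of the 10 (41.8%). Taken as pairs of the same number, all 3 differences were negative in 7 genes, a pattern in 27.1% of all probe sets, and all positive in 0 genes. CIITA fell by 0.32, 0.33 and 0.34 in pairs 1, 2 and 3. HLA-DMB fell by 0.39, 0.28 and 0.24, and HLA-DMA by 0.11, 0.22 and 0.20. With the replicate number as a block 7 of the 10 genes were called, all lower, where 30% of all probe sets were called and 15.8% called lower. The added calls were HLA-DMB (limma adjusted p = 0.00613) and HLA-DMA (0.0492). HLA-DOB split between the pairs, at -0.13 in pair 1 and at 0.29 and 0.21 in pairs 2 and 3.

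**Figure D2:**
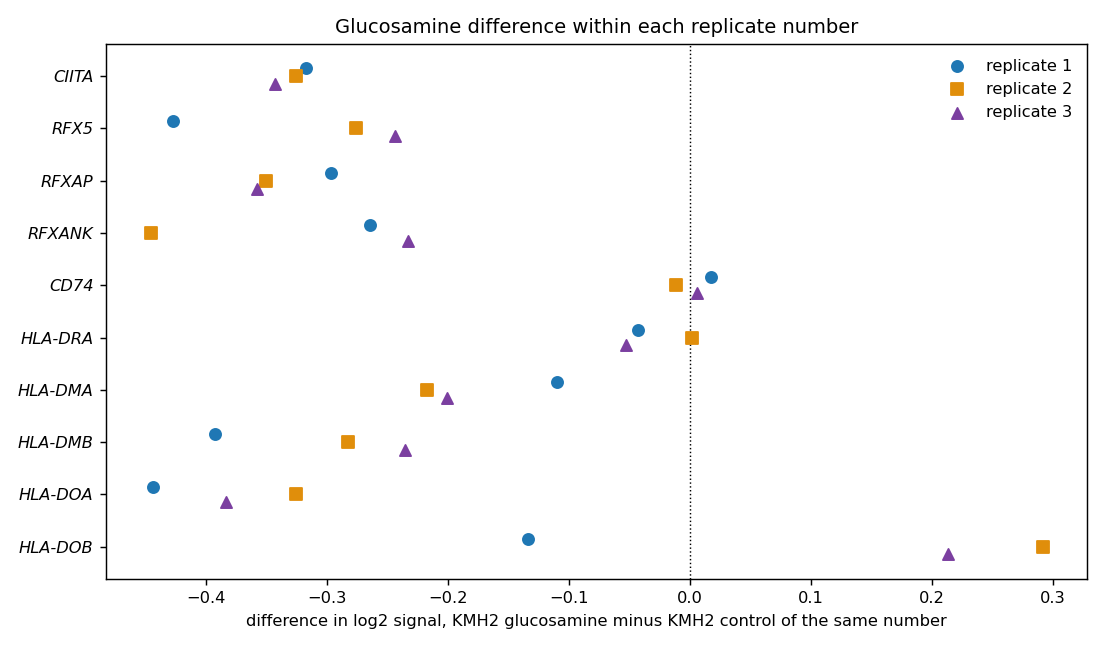
Difference in log2 signal (horizontal axis) between the KMH2 glucosamine and KMH2 control arrays of the same replicate number, 1 symbol per number, for each of the 10 genes. All 3 symbols lie left of 0 for 7 genes, those of CD74 and HLA-DRA lie close to 0, and those of HLA-DOB lie on both sides.

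Between the cell lines the order was different, since 3 of the 4 DM and DO genes were called higher in Ramos and 2 RFX subunits lower. Of the 10 genes 4 were called higher in Ramos than in KMH2 control (HLA-DOA, HLA-DOB, HLA-DMB and RFXAP), 2 lower (RFXANK and RFX5), and 4 did not pass. Over all probe sets 43.8% were called, 22.7% higher and 21.2% lower, so the number called among the 10 is not far from that of the array. The median difference was 0.21, against 0.06 over all probe sets. Both Ramos arrays were above every KMH2 control array in 6 genes and below every one in 2, against 37.8% and 26.3% of all probe sets (64.1% together). This comparison shares its control arrays with that of glucosamine.

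HLA-DOA had 9.39 and 9.10 on the Ramos arrays, against 8.12 to 8.49 on the KMH2 control arrays, a 1.95-fold higher signal (0.96 ± 0.14, SE, limma adjusted p = 0.000576). HLA-DOB had 8.59 and 8.23, against 7.42 to 7.55, which was 1.93-fold higher (0.94 ± 0.13, SE, adjusted p = 0.000373). HLA-DO is known to be made mainly in B cells, and 8 of the 9 B-cell markers were also higher in Ramos. Their part in this difference was not tested. HLA-DMB had 10.21 and 10.31, against 9.60 to 9.96, and was higher by 0.54 (adjusted p = 0.00794). That call was lost with array weights (0.0521). HLA-DMA had 11.02 and 11.14, against 10.73 to 10.92, and at 0.29 did not pass (adjusted p = 0.0629), although 1 of its 3 probe sets did (0.0476). The others held identical values on every array, so they are not separate measurements.

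RFXANK had 7.28 and 7.04 in Ramos, against 7.77 to 7.96 in KMH2 control, a 1.64-fold lower signal (-0.72 ± 0.11, SE, limma adjusted p = 0.000701). RFX5 had 9.11 and 8.90, against 9.50 to 9.70, a difference of -0.57 (adjusted p = 0.00110). RFXAP went the other way, with 6.73 and 6.49 in Ramos against 6.26 to 6.35 in KMH2 control (0.30 ± 0.08, SE, adjusted p = 0.0165). The RFXAP call was lost without control replicate 1 (limma adjusted p = 0.0550), without Ramos replicate 1 (0.0669), with array weights (0.0823) and with only the 5 arrays of the comparison (0.0526). The 3 subunits of 1 complex thus had differences of both signs between the lines.

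HLA-DRA had 12.36 and 12.42 in Ramos, against 12.31 to 12.44 in KMH2 control, and the groups overlapped. Its difference of 0.01 had a 95% confidence interval from -0.14 to 0.17 (limma adjusted p = 0.891). CD74 had 11.86 and 11.92, against 11.70 to 11.86, a difference of 0.13 with an interval from -0.06 to 0.32 (adjusted p = 0.240). The Ramos arrays of CD74 nevertheless lay at or above the highest control array.

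CIITA could not be placed between the lines, because its Ramos arrays disagreed. They had 7.28 and 6.55, and the first lay within the KMH2 control arrays (7.27 to 7.39) while the second was below all 6 KMH2 arrays. The difference of -0.41 ± 0.18 (SE) did not pass (limma adjusted p = 0.104). Without Ramos replicate 1 it was -0.78 and was called (adjusted p = 7.52e-05), and without Ramos replicate 2 it was -0.04 (adjusted p = 0.722).

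The Ramos arrays were set side by side for the other genes too, with no test and no treatment assigned. Replicate 2 minus replicate 1 was -0.74 for CIITA, a distance larger than that of 93.3% of all probe sets, whose median distance was 0.16. It was also lower for RFX5 (-0.21), RFXAP (-0.24), RFXANK (-0.24), HLA-DOA (-0.29) and HLA-DOB (-0.36). For CD74 (0.06), HLA-DRA (0.07), HLA-DMA (0.11) and HLA-DMB (0.11) it was slightly higher. Of all probe sets 51.8% were lower in replicate 2.

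**Figure D3:**
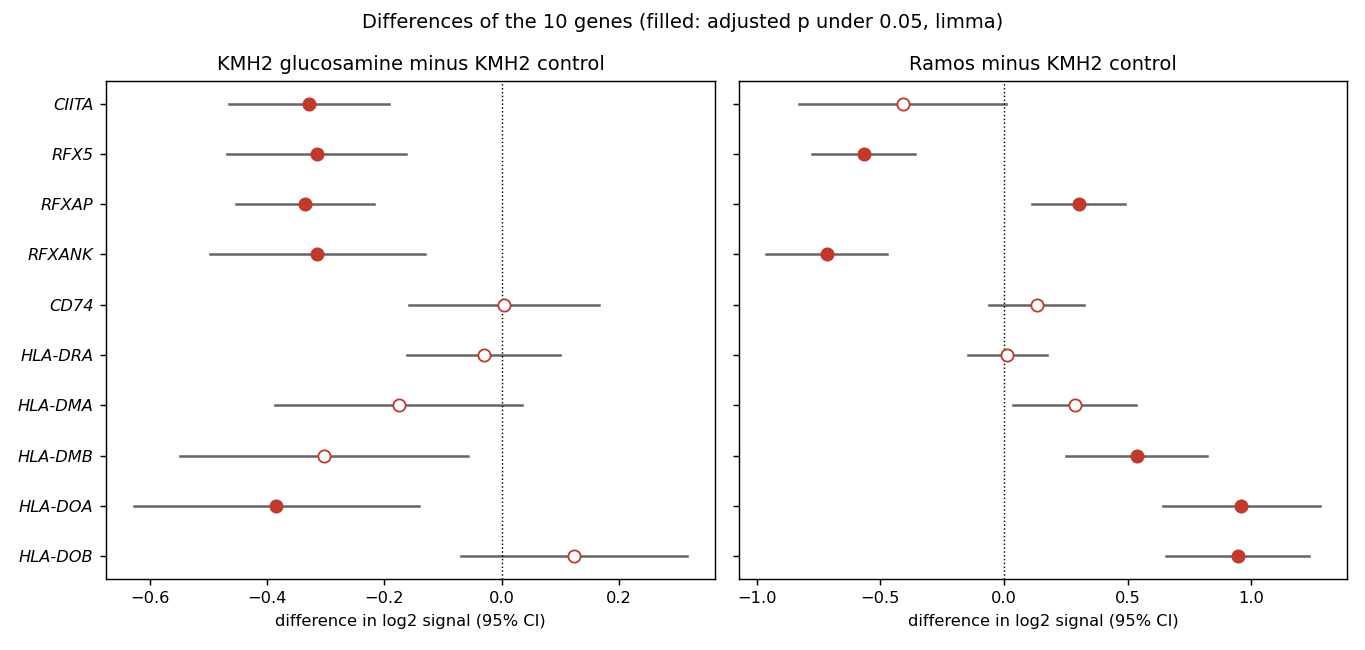
Differences in log2 signal (horizontal axes, dotted line at 0) with 95% confidence intervals from limma (filled points were called), for KMH2 glucosamine minus KMH2 control on the left and Ramos minus KMH2 control on the right. The 4 regulators lie near -0.3 after glucosamine, and HLA-DOA and HLA-DOB lie near 0.9 in Ramos.

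Other genes of the pathway were read from 5 lists. Of all probe sets tested, 25.8% were called after glucosamine (11.9% higher, 13.9% lower). In Ramos 43.8% were called (22.7% higher, 21.2% lower). The counts of the 5 lists were not tested against these shares. Among 6 further class II chain genes with a probe set of their own, 0 were called after glucosamine by limma (0 also at an unadjusted p under 0.05 and 0 with the replicate block), with a median difference of -0.06. The 3 with the smallest p were HLA-DQB1 (-0.15 ± 0.11, SE, limma adjusted p = 0.409), HLA-DRB3 (-0.06) and HLA-DQB2 (-0.09). These encode further chains of HLA-DR and HLA-DQ. In Ramos 1 of the 6 was called, HLA-DPA1, the alpha chain of HLA-DP, at -0.36 (adjusted p = 0.00257). The next were HLA-DRB3 (-0.08) and HLA-DQA1 (-0.05), which did not pass. With the mean of all its probe sets, HLA-DQA1 was instead called higher (0.47, limma adjusted p = 0.000636).

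The list of genes that cut the invariant chain and antigens in endosomes, and of proteins of those compartments, held 22 genes. After glucosamine 7 rose, 1 fell and 14 did not pass, with a median of 0.06. CTSS, the cathepsin that removes most of the invariant chain in B cells, had 8.45, 8.76 and 8.78 in glucosamine, against 8.06, 8.26 and 8.30 in control (0.46 ± 0.10, SE, limma adjusted p = 0.0122). LAMP2, a lysosomal membrane protein, rose by 0.27. LGMN, the asparagine endopeptidase legumain, was the gene that fell, by 0.38 (adjusted p = 0.00255, and 0.238 when all 8 arrays shared the spread). In Ramos 7 of the 22 were higher than in KMH2 control and 8 lower, with CTSB, cathepsin B, lower (-3.84), CD63, a tetraspanin of class II compartments, lower (-1.62) and CTSZ, cathepsin Z, higher (2.67).

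Partners of CIITA on the promoter and its own regulators went both ways. Of 27 genes 3 rose after glucosamine, 5 fell and 19 did not pass, with a median of -0.03. NFYB, the B subunit of the Y-box factor NF-Y, had 5.85, 5.92 and 5.80 in glucosamine, against 7.03, 6.97 and 6.81 in control. The difference was -1.08 ± 0.07 (SE, limma adjusted p = 5.92e-05). A second probe set was called too (-0.34), but it was dim, at 3.15 in glucosamine and 3.49 in control, and adds little. The other NF-Y subunit genes did not pass, with NFYA at -0.15 (limma adjusted p = 0.120) and NFYC at 0.15 (0.0745). IFNGR1, a chain of the interferon-gamma receptor upstream of CIITA, rose by 0.71, and HDAC1, a histone deacetylase, fell by 0.55. Named after their values were seen, CREBBP (0.46), a coactivator that binds CIITA, and FBXO11 (0.36), a ubiquitin ligase subunit, rose, while EZH2 (-0.38), IRF4 (-0.34) and PAX5 (-0.37) fell. In Ramos 11 of the 27 were higher than in KMH2 control and 7 lower, led by IRF8 (5.82), IRF4 (-5.05) and PAX5 (2.95), all transcription factors of B cells.

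Relatives of the regulators mostly did not pass after glucosamine. Of 9 genes, the other RFX factors with NLRC5 and ANKRA2, 1 fell and 8 did not pass. The gene that fell was NLRC5, the counterpart of CIITA for MHC class I, with 6.53, 6.79 and 6.57 in glucosamine, against 6.94, 6.96 and 6.92 in control (-0.31 ± 0.07, SE, limma adjusted p = 0.0161). Its call was lost without control replicate 2 (limma adjusted p = 0.0611), without glucosamine replicate 3 (0.0635) and when all 8 arrays shared the spread (0.0882). ANKRA2, a relative of RFXANK, was at -0.22 (adjusted p = 0.141, and 0.0288 with the replicate block), and RFX3 at -0.14 (0.172). In Ramos RFX1 was higher (0.55) and RFX2 lower (-0.73), while RFX6 at 0.22 did not pass (0.0595), except without Ramos replicate 1 (0.33, limma adjusted p = 0.00870) and with a trended, robust prior (0.0337).

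Of 11 genes that neighbour the DM and DO genes, 4 fell after glucosamine and 7 did not pass, with a median of -0.15. RING1, a Polycomb ubiquitin ligase, fell by 0.52, PSMB9, an immunoproteasome subunit, by 0.40, and TAPBP, tapasin of the class I loading complex, by 0.29. The remaining one was PSMB8 (-0.32, named after its value was seen), another immunoproteasome subunit. In Ramos 3 of the 11 were higher than in KMH2 control and 2 lower. TAP1, a chain of the peptide transporter, was lower (-1.39), TAPBP lower (-0.54) and TAP2, the partner chain, higher (0.34, not called with array weights, limma adjusted p = 0.110), and the others called were RXRB (0.46) and BTNL2 (0.24, both named after their values were seen).

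**Figure D4:**
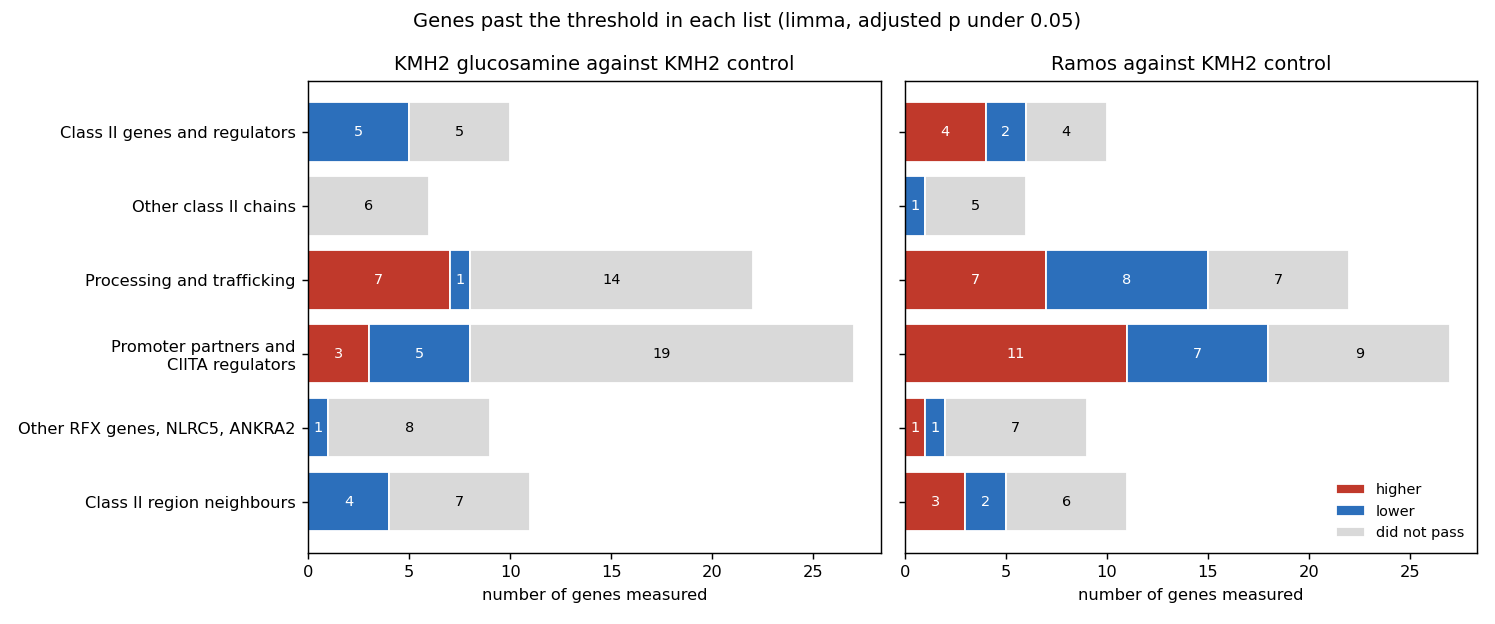
Number of measured genes (horizontal axis) called higher, called lower or not passing in the class II set and the 5 related lists, for KMH2 glucosamine against KMH2 control on the left and Ramos against KMH2 control on the right. After glucosamine 5 of the 10 class II genes and regulators were lower and 0 of the 6 other chain genes were called. Over all probe sets 25.8% were called after glucosamine and 43.8% in Ramos.

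The genes whose profile over the 8 arrays was most like that of CIITA, each gene centred on its own mean, were RFTN1, TPM4 and MAN2B1, with root mean square distances of 0.05, 0.05 and 0.06 log2 units. For CD74 they were NHLRC1 (0.02), TYRP1 (0.03) and ZC3HAV1L (0.03), 3 genes of low signal (3.25 to 4.26 on any array) with little movement over the arrays.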

How the data were processed

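RNA of 8 samples was labelled with biotin and hybridised to Affymetrix HuGene-1_1-st-v1 arrays, per the labels' protocols. The deposited values are log2 signals per probe set, a unit read from the values (1.94 to 13.2 over 33297 probe sets, array medians 5.62 to 5.68). How the authors summarised, background-corrected and normalised them is not given in the sources used here. Gene symbols came from the platform annotation, and 19181 with exactly 1 symbol were tested, while 2055 with several symbols were not. Two-sided tests used lmFit and eBayes of limma 3.58.1 (R 4.3.3), and p-values were adjusted by Benjamini-Hochberg over those probe sets, with a threshold of 0.05. The glucosamine fit used the 6 KMH2 arrays, and the Ramos fit all 8 arrays in 3 groups sharing the spread. The fits were tested on simulated data with 50 probe sets changed at each size. The glucosamine fit recovered 28% of log2 differences of 0.3 and 70% of those of 0.5, and the Ramos fit 4% and 40%. A gene that did not pass is thus not shown to be unchanged. Far fewer probe sets were changed there than were called in the data, so these shares may not carry over. Standard deviations between replicates had medians of 0.08 in KMH2 glucosamine, 0.11 in Ramos and 0.07 in KMH2 control, and the small number of arrays limits the precision. KMH2 replicates are biological per the series' design text, and for Ramos this was not given, so p-values measure the spread between these samples.

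The 10 genes and the lists were chosen with earlier results of these data known. Besides the 10 genes, the 3 genes with the smallest p in each list and comparison are named. Some list genes had no probe set of their own and are not reported here. Replicate numbers are shared between the KMH2 groups, and deviations from the group means correlated within number (0.46, 0.23 and 0.23), so the pairs were taken as such, although crossing replicates 2 and 3 gave similar values (0.25 and 0.18). Alternatives were the replicate block, other normalizations, filters, weights, priors and probe set choices, and leaving out each replicate.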

Additional observations from a re-analysis of the deposited data

How the results depend on the processing

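After glucosamine the count of all calls was 4956, and it lay between 3600 and 5304 when 1 replicate was left out. It was 2177 when all 8 arrays shared the spread. The number of the 10 class II genes called was 5, ran from 3 to 8 with 1 replicate left out (3 when control 1, glucosamine 2 or glucosamine 3 was dropped, and 8 when glucosamine 1 was), and was 8 with array weights, 8 with both replicate 1 arrays dropped and 2 when all 8 arrays shared the spread. With the replicate block the counts were 5748 and 7, and the calls that changed among the genes named are given beside them. The Ramos arrays are of another line, so their numbers do not pair them with KMH2. A fit with the replicate block there gave 7741 calls in place of 8408. Array weights gave 6361 calls and 4 of the 10 genes, in place of 6. Leaving out 1 replicate gave 7035 to 9349 calls and 5 to 6 of the 10 genes. Directions turned only for differences near 0 and for 1 gene with discordant probe sets. CD74 after glucosamine was -0.020 with quantile normalization, -0.019 with median centring, -0.011 with array weights and -0.0028 with both replicate 1 arrays dropped, and lay between -0.052 and 0.053 when 1 replicate was left out. HLA-DRA in Ramos was -0.0075 with median centring, and between -0.022 and 0.047 with 1 replicate left out. HLA-DQB2 after glucosamine lay between -0.17 and 0.0017 with 1 replicate left out. HLA-DQA1 in Ramos was 0.47 with the mean of all its probe sets, and was called higher there (limma adjusted p = 0.000636). The causes were not tested, apart from the pooled spread, which by construction includes the distance between the Ramos arrays.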

Other observations

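Probe sets of the same class II chain gene did not always give the same line difference, and the genes below were chosen after their values were seen. The brightest probe set of HLA-DPB1 had 11.87 in Ramos and 11.88 in KMH2 control, whereas the other 2 were called lower in Ramos, at -0.59 and -1.21 (limma adjusted p = 6.44e-06). HLA-DQA1 showed the reverse. Its 2 bright probe sets had the same group means, 12.36 in Ramos and 12.41 in KMH2 control. A less bright one had 7.81 in Ramos and 6.29 in KMH2 control, a called rise of 1.52 (limma adjusted p = 2.47e-05). After glucosamine no probe set of these genes passed (limma, adjusted p from 0.332 for HLA-DQA1 and 0.662 for HLA-DPB1 upwards). These chains are known to be highly polymorphic, and whether allele differences between the lines play a part was not tested.

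Genes that remove class II molecules from the surface, or prepare antigens for them, were among those higher in Ramos, again chosen after their values were seen. MARCHF1, a ubiquitin ligase that sends class II to lysosomes, had 6.03 and 7.12 in Ramos, against 3.60 to 3.81 in KMH2 control (2.84 ± 0.26, SE, limma adjusted p = 4.04e-05). The related ligase gene MARCHF8 was higher by 1.48 (adjusted p = 0.000214). IFI30, the lysosomal thiol reductase that unfolds antigens, was higher by 0.92 (adjusted p = 0.000575). After glucosamine MARCHF1 (0.07), MARCHF8 (0.07) and IFI30 (-0.20) did not pass.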
